A study of Mus musculus with 8 samples.

Results

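The genes described here encode receptors and ligands of the netrin and slit guidance systems: the netrin receptors Unc5a, Unc5b, Unc5c, Unc5d and Dcc, the slit receptors Robo1 and Robo2, and the ligands Slit1, Slit2 and Slit3. They were taken as a named set of 10 genes out of 21887 protein-coding loci with a unique symbol, and each was followed over its RefSeq gene span on GRCm38 (the assembly that mm10 represents) plus 10 kb on either side, here called its locus. The data are lists of broad peaks, 1 per library, from ChIP-seq with an antibody to methylated histone H3 lysine 4 (H3K4me in the labels) on native chromatin of whole cortex at E15.5. WT embryos were Prdm16 flox/flox without Cre (2 libraries). cKO embryos were Emx1Ires-Cre; Prdm16flox/flox (2 libraries), so both groups carry the floxed alleles and only the cKO group carries Cre. Emx1-Cre acts in dorsal telencephalic progenitors and their offspring, so a whole cortex lysate also holds cells outside that lineage, and the labels do not say how many embryos went into a library. Because nothing in the labels says that replicates came from separate embryos, p-values measure only the spread between these libraries, which may be technical. The read depth is unknown, since peak lists hold no counts. Paired values are given for replicates 1 and 2 in that order. The comparison asks where this mark differs once Prdm16, a zinc-finger regulator of cortical neural stem cells, is deleted.

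Netrins are secreted proteins that attract growing axons through DCC and repel them when an UNC5 receptor takes part. Slits are secreted repellents that act through ROBO receptors and steer commissural axons, corticofugal axons and migrating neurons. Monomethylated H3K4 marks enhancers and the flanks of active promoters. If the mark named H3K4me in the labels is that form, the peaks over these genes show where such elements may lie in the embryonic cortex.

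Across all genes, the cKO lists were longer and wider than the WT lists. They covered 148 and 166 Mb, against 130.3 and 114 Mb for WT. The median locus therefore gained 0.35 on the log2 scale before any scaling, and differences are given below after centring each library on its median locus, which left the median of 14941 tested loci at −0.038. The loci of 10 dorsal cortex markers, such as Emx1 and Tbr1, had a median of 65.1% under peaks (range 21.4% to 91.5%). Of 4 blood, muscle and liver markers the range was 0% to 12.1%, with no peak in any library over Alb and Hbb-bt, and 4 microglial markers ranged from 1.13% to 11.6%. The 3 vessel markers ranged from 4.41% to 13.9%, the 3 meningeal markers from 4.19% to 25.8% and the 4 ventral telencephalic markers from 5.56% to 27.1%. The part that these other cell types play in the results was not tested, and in a lysate fewer cells of a type and less mark per cell cannot be told apart. Prdm16 itself lay under 154 and 144 kb of peaks (WT) and 171 and 182 kb (cKO); broad peaks over the gene do not check its deletion.

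The promoter windows of 7 of the 10 genes were matched in RefSeq (GRCm38.p6), 9 windows in all, each running from 250 bases before to 50 bases after a transcription start. Peaks touched 5 of the 9 windows in all 4 libraries, 3 in some libraries and 1 in none, while 20.7% of all 32851 promoter windows were touched in all 4. The 6 windows below are shown because they span that range: Slit3 and the outer starts of Robo2 were touched by peaks in every library, Slit2 and the innermost Robo2 start in some, and an internal start of Robo1 in none. The outer start of Robo1, at the end of its gene span, lay in an interval with a peak in all 4 libraries (72027218 to 72031384; 4.12 and 2.82 kb for WT, 3.52 and 3.88 kb for cKO). No promoter window was matched at that outer start. Of the covered bases in the Robo1 locus, 99.4% and 100.0% (WT) and 99.6% and 100.0% (cKO) lay inside the gene span. The replicate 2 peaks therefore reached hardly or not at all before that start. Each of the 6 windows is written 5′ to 3′ on the gene's strand, with CG dinucleotides in capitals.
Slit3, chr11:35121206-35121505, plus strand: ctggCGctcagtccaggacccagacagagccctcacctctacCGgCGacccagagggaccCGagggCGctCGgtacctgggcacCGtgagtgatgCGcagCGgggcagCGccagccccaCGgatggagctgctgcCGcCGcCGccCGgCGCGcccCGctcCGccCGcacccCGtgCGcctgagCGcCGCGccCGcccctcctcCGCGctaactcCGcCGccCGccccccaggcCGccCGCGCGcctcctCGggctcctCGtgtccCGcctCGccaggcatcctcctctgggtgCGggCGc
Slit2, chr5:47982905-47983204, plus strand: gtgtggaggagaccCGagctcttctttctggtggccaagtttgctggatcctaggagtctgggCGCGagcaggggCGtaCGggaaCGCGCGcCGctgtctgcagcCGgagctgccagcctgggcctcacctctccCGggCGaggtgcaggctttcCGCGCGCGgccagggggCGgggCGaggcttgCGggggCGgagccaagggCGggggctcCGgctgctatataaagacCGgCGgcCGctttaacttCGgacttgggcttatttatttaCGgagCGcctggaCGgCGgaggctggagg
Robo1, chr16:72662899-72663198, plus strand: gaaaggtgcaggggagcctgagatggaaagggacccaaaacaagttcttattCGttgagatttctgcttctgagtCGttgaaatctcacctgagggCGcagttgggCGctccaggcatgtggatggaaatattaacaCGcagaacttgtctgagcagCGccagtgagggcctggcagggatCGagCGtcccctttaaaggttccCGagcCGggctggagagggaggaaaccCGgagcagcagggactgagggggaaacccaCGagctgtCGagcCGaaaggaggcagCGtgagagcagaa
Robo2 outermost start, chr16:75447244-75447543, minus strand: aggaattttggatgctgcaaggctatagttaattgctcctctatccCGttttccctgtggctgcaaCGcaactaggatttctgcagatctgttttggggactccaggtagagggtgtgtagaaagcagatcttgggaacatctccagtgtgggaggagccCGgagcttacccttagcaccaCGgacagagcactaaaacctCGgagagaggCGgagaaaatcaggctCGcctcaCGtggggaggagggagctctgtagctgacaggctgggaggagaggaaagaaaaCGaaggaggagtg
Robo2 middle start, chr16:75092721-75093020, minus strand: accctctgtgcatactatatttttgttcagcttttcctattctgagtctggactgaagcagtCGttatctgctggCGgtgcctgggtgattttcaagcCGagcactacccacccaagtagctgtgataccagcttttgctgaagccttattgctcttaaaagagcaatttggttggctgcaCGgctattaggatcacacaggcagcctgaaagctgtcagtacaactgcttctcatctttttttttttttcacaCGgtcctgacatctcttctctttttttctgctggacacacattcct
Robo2 innermost start, chr16:74411776-74412075, minus strand: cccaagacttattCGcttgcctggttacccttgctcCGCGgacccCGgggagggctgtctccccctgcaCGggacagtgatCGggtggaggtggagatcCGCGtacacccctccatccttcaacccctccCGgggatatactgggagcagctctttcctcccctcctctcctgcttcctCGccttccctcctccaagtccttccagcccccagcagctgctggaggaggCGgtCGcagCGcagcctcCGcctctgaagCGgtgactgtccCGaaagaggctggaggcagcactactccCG

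The Slit3 window held 41 CG dinucleotides and the Slit2 window 30, compared with a median of 7 over all promoter windows. The Robo1 window held 15, and the Robo2 windows held 9, 5 and 17 from the outermost to the innermost start. The windows of Unc5a, Unc5b and Unc5c, not printed, held 37, 36 and 24, so 8 of the 9 windows were above the median. The letters CANNTG, the core that bHLH factors bind, occurred in 4 of the 9 windows on either strand (3 matches in Robo1 and 1 in each Robo2 window), and in 72.3% of all windows. TTGGC, the core of the nuclear factor I site, occurred in 3 of 9 (46.7% of all), and ACAAT, a SOX core, in 1 of 9 (31.0% of all). The full palindromic nuclear factor I site, which contains TTGGC, occurred in 0 of 9 (0.0365% of all). Both strands were searched for each. These matches describe the letters only.

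Coverage by peaks differed widely within the family. Slit1 was the most covered member, with 44.0% ± 4.77 of its locus under peaks (SD, n = 4 libraries), followed by Unc5a with 39.8% ± 4.64. These shares overlapped between the 2 genes, although Slit1 was the higher in each library. Unc5b (20.8% ± 4.83) and Slit3 (14.9% ± 4.21) came next and also overlapped. Unc5d (6.96% ± 0.534) and Robo1 (5.63% ± 0.879) followed, again with overlap. Robo2 (3.40% ± 0.233), Unc5c (3.37% ± 0.520), Slit2 (3.26% ± 0.701) and Dcc (3.11% ± 0.763) closed the order, and their ranges over the 4 libraries overlapped. Each SD is over WT and cKO libraries together, so it also holds any difference between the genotypes. The median member stood at 6.29%, against 5.68% over all 21887 loci and 5.76% over the 3139 loci of at least 100 kb, a class that holds 8 of the 10 genes. Slit1 stood at percentile 98.6 and Slit3 at percentile 81.9 of those long loci, while Dcc stood at percentile 31.7. The plot of covered shares by library shows these steps.

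**Figure D1:**
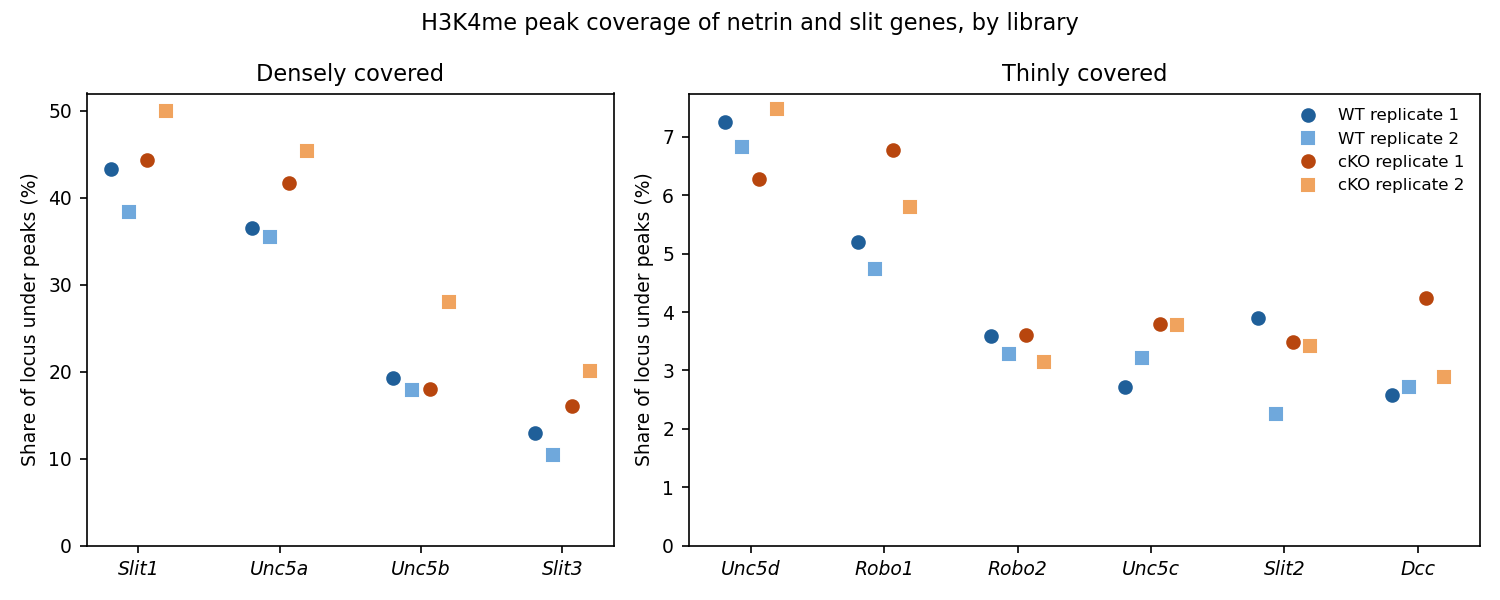
Share of each locus (gene span plus 10 kb on either side) under H3K4me peaks, in percent, with 1 point per library and separate scales for the 2 panels; circles are replicate 1 and squares replicate 2. Slit1 lies at or above 38.4%, whereas Slit2, Unc5c, Robo2 and Dcc stay below 5% in every library.

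No member passed the test between genotypes, although the test found only 7 of 50 simulated log2 changes of 0.5. limma on log2(covered bases + 500), adjusted over all 14941 loci, called 0 of the 10 members (smallest adjusted p = 0.407), and among all loci it called 0% on the higher side and 0% on the lower side. At an unadjusted p under 0.05 Slit3 was on the higher side, where 5.56% of all loci were, and Unc5d, Robo2 and Slit1 were on the lower side, where 4.44% were. The median difference of the members was −0.12, with 2 above and 8 below 0, compared with 45.0% and 55.0% of all loci. Before centring the members' median was 0.27, with 8 above and 2 below 0. In covered bases, both cKO libraries exceeded both WT libraries in 6 of 10 members, beside 59.8% of all loci; this count was 3 with equal numbers of peaks and 1 with equal covered length. After centring, both cKO values lay above both WT values in 1 member, beside 17.3% of all loci, and below in 4, beside 27.2%. An exact two-sided permutation test on 2 against 2 libraries cannot go below p = 0.333.

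**Figure D2:**
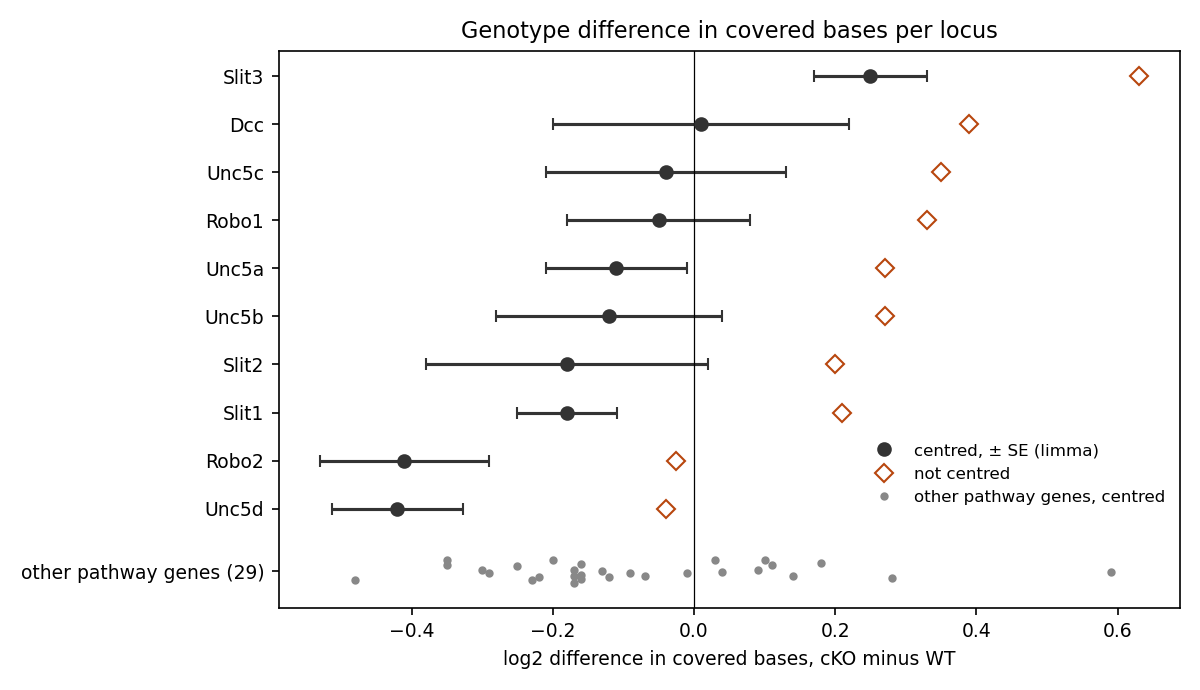
log2 difference in covered bases per locus, cKO minus WT, for the 10 members (filled points, centred, bars ± SE from limma with 2 libraries per genotype; open diamonds, not centred) and for 29 other pathway genes (grey points, centred). Slit3 lies farthest to the right of the filled points at 0.25 and Unc5d farthest to the left at −0.42, and for these genes, as for the rest, no difference passed the adjusted test.

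Slit3, a secreted ligand for ROBO receptors (chromosome 11, 35121456 to 35708507, plus strand), had the largest positive difference of the set, except without cKO replicate 2, when Dcc was higher (0.37 against 0.18). Peaks covered 78.3 and 63.2 kb of the 607 kb locus in the WT libraries, compared with 97.9 and 122 kb in the cKO libraries. Both cKO libraries were above both WT libraries, and the ratio of the means was 1.56. The centred log2 difference was 0.25 ± 0.080 (SE; limma adjusted p = 0.473), at percentile 79.0 of the tested loci, and 0.63 without centring. It was positive in all 16 alternatives, from 0.18 to 0.63 (adjusted p from 0.173 to 0.927).

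The extra bases over Slit3 lay mostly in intervals that carried a peak in every library, as they did across the genome. When the peaks of the 4 libraries were merged, the locus held 66 intervals, of which 42 had a peak in all 4. Peaks in those 42 covered 66.6 kb on average in WT and 96.1 kb in cKO, a difference of 29.5 kb, while the other intervals added 9.78 kb. The genome gained 22867.7 kb in intervals with a peak in all 4 libraries and 12389.6 kb in the others. Of the 42 intervals, 25 were covered over more bases in both cKO libraries than in both WT libraries and 0 over fewer. Across the genome these shares were 40.9% and 5.35% of 53603 such intervals. Over the gene's start, in the interval from 35118978 to 35127746, peaks covered 4032 and 1928 bp (WT) and 4601 and 8769 bp (cKO), and this interval contains the printed window. Inside the gene, the interval from 35507031 to 35510413 had 0.763 and 1.41 kb (WT) against 3.24 and 3.27 kb (cKO), and the interval from 35584731 to 35588205 had 1.42 and 1.34 kb against 3.48 and 3.30 kb. These intervals were chosen after their values were seen, among the widest gains. Coverage declined along the gene from 19.4% of the part nearest the start to 14.6% and 11.3% of the next parts, when the span was cut into 3 equal parts. The locus held 1 cKO-only region (514 bp, 35351070 to 35351583) and 1 WT-only region (477 bp, 35278449 to 35278925), that is, stretches of at least 200 bp covered in both libraries of one genotype and free of peaks in both libraries of the other.

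Slit1, the ligand that was most covered (chromosome 19, 41597824 to 41747275), carried long continuous peaks. The WT libraries had 73.3 and 65.0 kb under peaks and the cKO libraries 75.1 and 84.7 kb, in a locus of 169 kb. The cKO values exceeded the WT values by less than the median locus did, and the centred difference was −0.18 ± 0.071 (SE; limma adjusted p = 0.485). Without centring it was 0.21, and it was 0.074 with lists cut to equal covered length. The longest stretch covered in all 4 libraries ran over 10118 bp (41737375 to 41747492) and crossed the upper end of the gene span. Of 17 merged intervals, 15 had a peak in all 4 libraries (88.2%, beside 57.1% genome-wide), and no region was specific to a genotype. The widest merged interval, from 41672361 to 41700499, held 19.4 and 18.9 kb of peaks (WT) against 24.3 and 26.5 kb (cKO). Its cKO mean exceeded its WT mean by 6239 bp. Part of the locus also touches Lcor, but at most 1.25% of its covered bases in a library lay over that gene.

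Slit2, which with Slit1 guides forebrain axons (chromosome 5, 47981291 to 48307735, plus strand), carried few peaks. Its 346 kb locus had 13.5 and 7.84 kb under peaks (WT) against 12.1 and 11.8 kb (cKO). The groups overlapped, with WT replicate 2 the lowest library. The centred difference was −0.18 ± 0.20 (SE; limma adjusted p = 0.747), and it ranged from −0.76 with lists cut to equal covered length (limma adjusted p = 0.522) to 0.20 without centring. Leaving out WT replicate 2 gave −0.45, and leaving out WT replicate 1 gave 0.09. Only 3 of its 9 merged intervals had a peak in all 4 libraries. The longest stretch common to all lay just inside the gene (47983821 to 47987234, 3414 bp), downstream of the printed window. That window was fully covered in cKO replicate 2 and lay 516, 479 and 617 bp from the nearest peak in the other libraries. The last of 3 equal parts of the gene had no peak in any library.

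**Figure D3:**
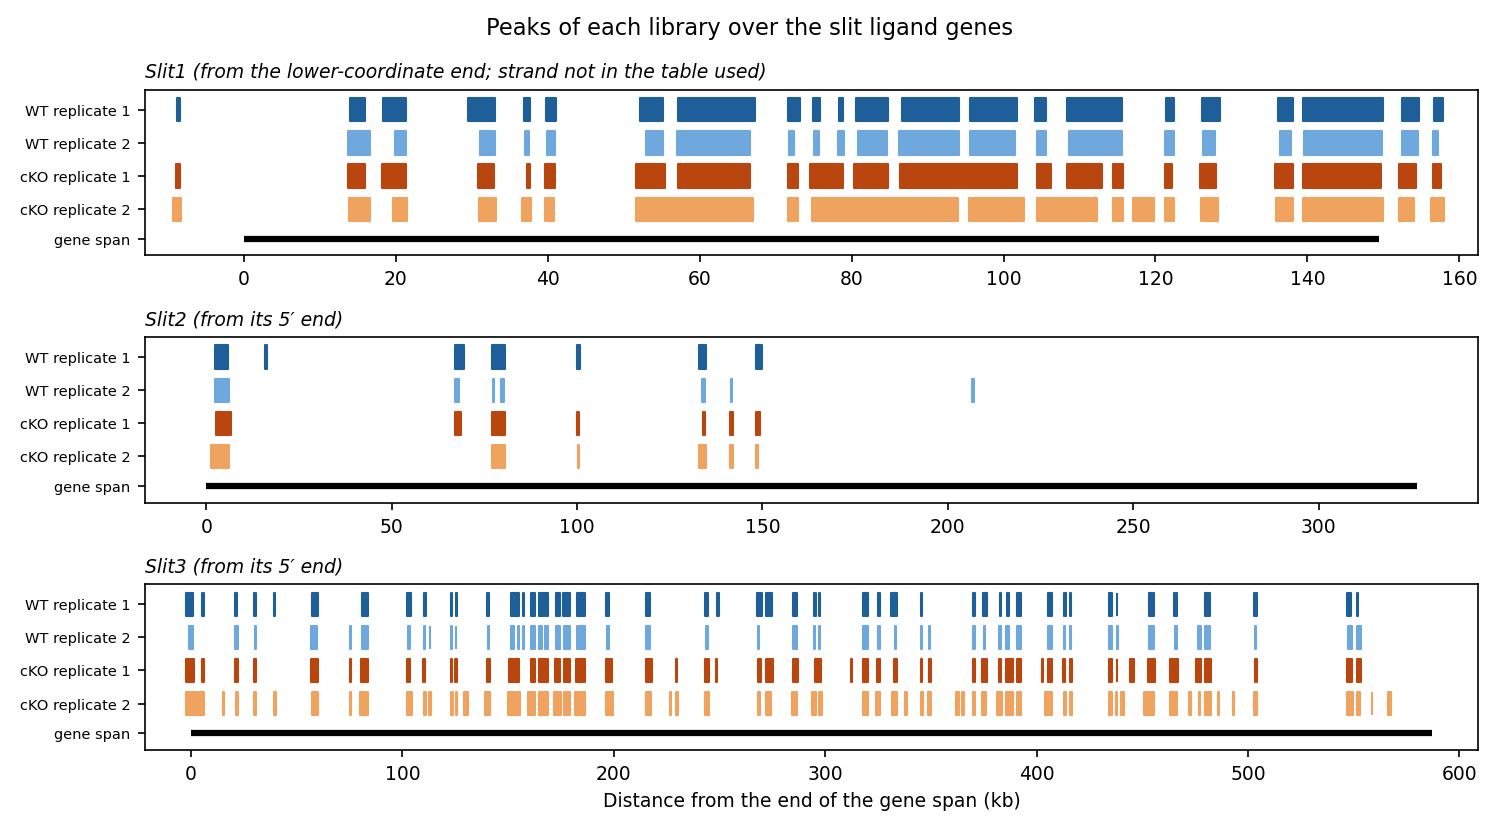
Peaks of each library (coloured bars, 1 row per library) over the 3 slit genes, by distance in kb from the end of the gene span named above each panel; the black line is the gene span. Slit1 is filled by long peaks, Slit2 has peaks near its start and in the nearer part of the span but none in its last part, and Slit3 has 48 to 62 peaks spread along the gene in each library.

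Slit2 and Slit3 each hold a copy of the microRNA gene for miR-218, which is known to target Robo1 and Robo2. The mature strand is the same from both genes and is shown, from RefSeq, because it ties ligand genes to receptor genes; its seed (bases 2 to 8) is in capitals.
mmu-miR-218-5p: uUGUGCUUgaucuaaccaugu
Neither hairpin was under a peak. The nearest peak to Mir218-1 in Slit2 (48223942 to 48224051) was 92.9, 35.6, 93.2 and 93.9 kb away in WT replicates 1 and 2 and cKO replicates 1 and 2. The nearest peak to Mir218-2 in Slit3 (35616816 to 35616925) was 7.57, 7.68, 7.66 and 2.00 kb away. The hairpins were looked up after the peaks had been seen.

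The slit receptors Robo1 and Robo2, neighbours on chromosome 16 with opposite strands, had unlike values between the genotypes with the lists as deposited. Robo1 (72027518 to 73047491, plus strand) had 54.1 and 49.2 kb under WT peaks and 70.4 and 60.3 kb under cKO peaks, without overlap. Robo2 (73891976 to 75447443, minus strand) had 56.6 and 51.6 kb (WT) against 56.9 and 49.5 kb (cKO), with overlap. The centred difference of Robo1 was −0.05 ± 0.13 (SE; limma adjusted p = 0.896). It depended on the processing in both directions: it was −0.70 with lists cut to equal covered length (limma adjusted p = 0.496) and −0.38 with equal numbers of peaks (limma adjusted p = 0.610), but 0.33 without centring, 0.15 without cKO replicate 2 and 0.03 with cyclic loess scaling. That of Robo2 was −0.41 ± 0.12 (SE; limma adjusted p = 0.459), at percentile 6.40 of the tested loci. It was negative in all 16 alternatives, but only −0.026 without centring and −0.22 without cKO replicate 2. For Robo2 it was −0.46 with equal numbers of peaks and −0.51 with equal covered length, where Robo1 was the lower. The difference between the 2 genes was not tested.

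The added bases of Robo1 lay mainly in intervals that were not shared by all libraries, unlike those of Slit3 and of the genome as a whole. Intervals with a peak in 1 to 3 libraries held 6.19 kb on average in WT and 18.2 kb in cKO, whereas the 25 shared intervals held 45.5 and 47.2 kb. Robo1 had 5 cKO-only regions and 0 WT-only regions with the lists as deposited; over all 10 loci such counts turned toward WT when the lists were cut to equal size. The longest stretch common to all libraries was 2875 bp (72698217 to 72701091). The longest cKO-only region, of 984 bp (72685837 to 72686820), lay in an interval with no peak in WT and 2888 and 1585 bp in cKO. The printed Robo1 window, at a start inside the gene span, was 1142, 1045, 1004 and 1017 bp from the nearest peak. Coverage rose along the gene, from 2.50% in the part nearest the outer start to 5.65% and 9.02% in the next parts.

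Robo2 had regions specific to either genotype, 2 cKO-only and 4 WT-only, out of 5591 and 581 in the genome. The longest cKO-only region (74354474 to 74355710, 1237 bp) lay in an interval without WT peaks. The longest stretch common to all libraries was 4345 bp (74054142 to 74058486). The WT-only regions were between 234 and 297 bp long; the longest ran from 74403746 to 74404042. At the middle printed start, the interval from 75089625 to 75093633 had 1.17 and 1.49 kb of peaks (WT) against 2.68 and 3.90 kb (cKO), above both WT values. At the outermost start the peaks within 5 kb covered 0.679 and 0.959 kb (WT) against 0.780 and 0.755 kb (cKO), which overlapped. At the innermost start they covered 2.81 and 1.89 kb (WT) against 1.91 and 2.17 kb (cKO), which also overlapped. Elsewhere in the gene, the interval from 74455167 to 74458158 had 2.13 and 1.38 kb (WT) against 0.537 and 0.404 kb (cKO). The first and last of these intervals were chosen after their values were seen. As in Robo1, the part farthest from the outer start was the most covered (7.10%, against 0.739% nearest to it).

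Unc5d had the lowest difference of the set in the test as run. Slit2, Robo1 and Unc5c were lower with equal covered length, Slit2 and Robo2 without WT replicate 2, and Robo2 without cKO replicate 1. Unc5d encodes a netrin receptor that marks multipolar cells of the cortical subventricular zone and also binds FLRT2 (chromosome 8, 28646717 to 29219671). Of its 593 kb locus, peaks covered 43.0 and 40.5 kb in the WT libraries and 37.2 and 44.4 kb in the cKO libraries. The groups overlapped in covered bases, and the cKO mean was 0.976 of the WT mean. After centring, both cKO values lay below both WT values, and the difference was −0.42 ± 0.093 (SE; limma adjusted p = 0.407), at percentile 5.89 of the tested loci. It was negative in all 16 alternatives, from −0.61 to −0.039, the last without centring. With no filter on low coverage, limma called Unc5d (adjusted p = 0.00957) and Robo2 (adjusted p = 0.0124) lower. In that fit 21887 loci were tested, including those with no peak base in any library, and 203 loci were called higher and 195 lower. Of the 10 dorsal cortex marker loci, 10 had a negative centred difference (median −0.27), beside 55.0% of all tested loci. At an unadjusted limma p under 0.05 there were 5 on the lower side, beside 4.44%. Both cKO libraries exceeded both WT libraries in covered bases in 4, beside 59.8%. The 3 meningeal marker loci were also negative (median −0.15), and of the 4 ventral telencephalic ones 2 were above and 2 below 0. The 2 microglial marker loci that were tested were negative too (median −0.20). Of the 2 vessel marker loci tested, 1 was above and 1 below 0, and the 1 tested locus of the blood, muscle and liver markers was above 0. The part of any of these cell types in the Unc5d and Robo2 values was not tested.

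Unc5d held 2 WT-only regions and 0 cKO-only regions. The longer, of 940 bp (28775035 to 28775974), lay in an interval with 2166 and 1098 bp of peaks in WT and none in cKO. Another interval (28740863 to 28746826) had 5588 and 3775 bp (WT) against 2849 and 3361 bp (cKO), and a further one (28819276 to 28823540) had 4265 and 4004 bp against 3097 and 3255 bp. These 2 were chosen after their values were seen. Of the 17 intervals shared by all 4 libraries, 4 were covered over more bases in both cKO libraries and 4 over fewer. Across the genome 40.9% of shared intervals were covered over more bases in both cKO libraries and 5.35% over fewer. The longest stretch common to all libraries was 3722 bp (29214907 to 29218628), near the upper end of the gene span.

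**Figure D4:**
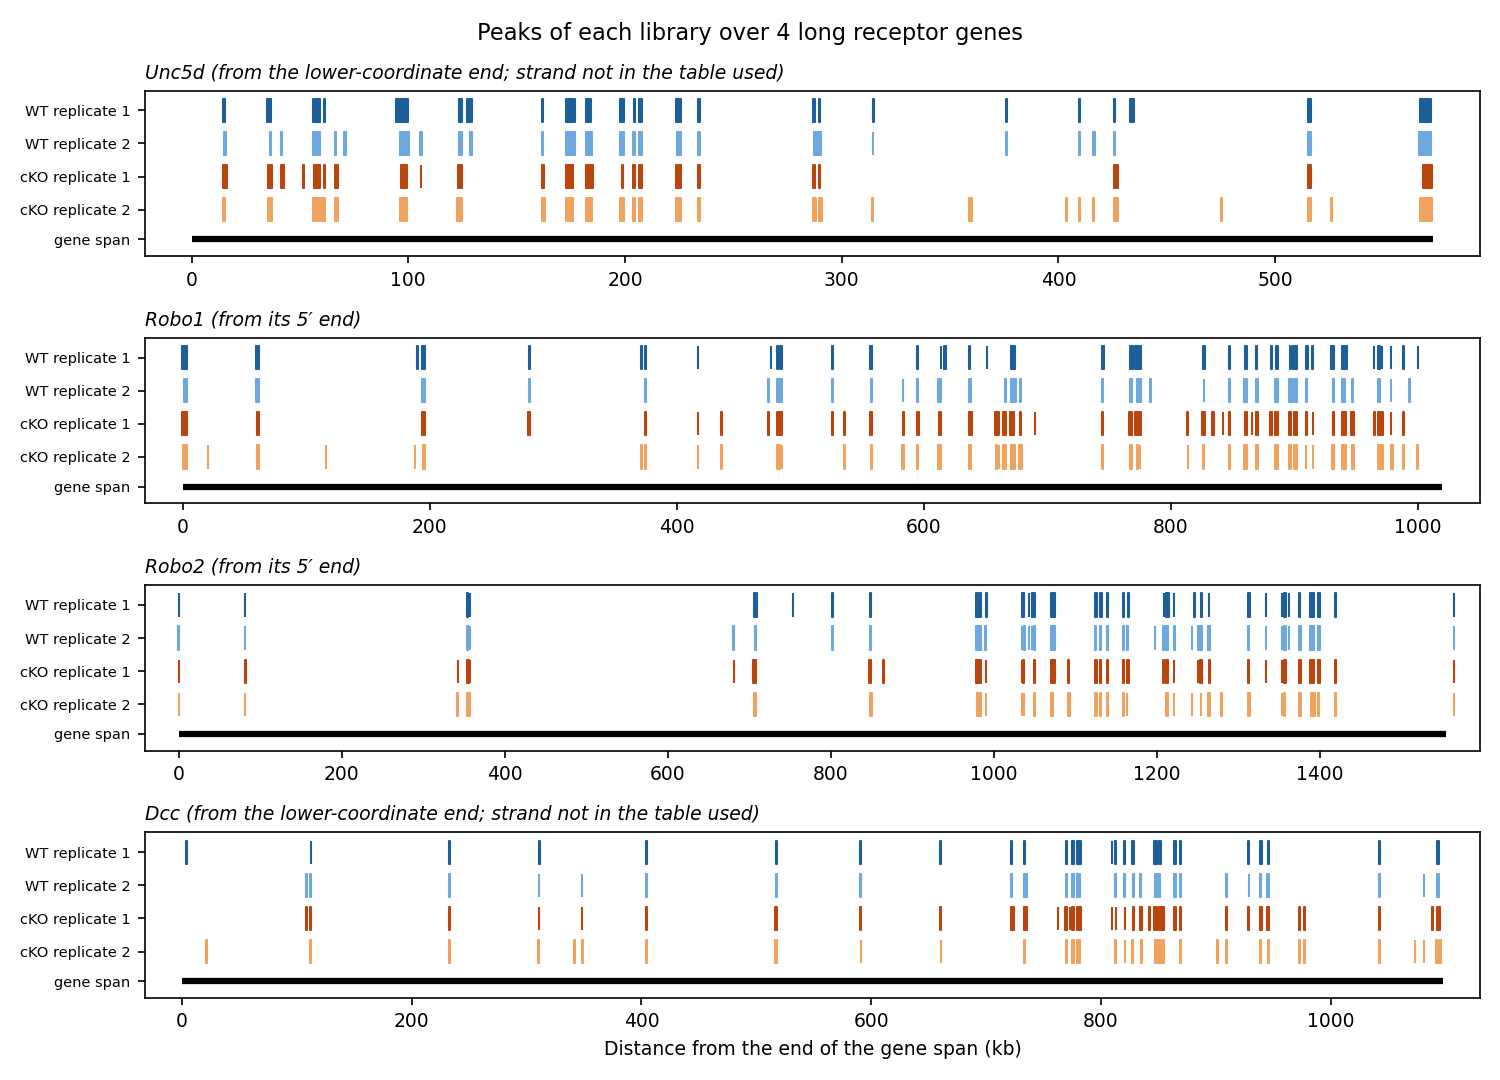
Peaks of each library (coloured bars, 1 row per library) over Unc5d, Robo1, Robo2 and Dcc, by distance in kb from the end of the gene span named above each panel; the black line is the gene span. In Robo1 and Robo2 the peaks crowd toward the 3′ end, and in all 4 genes most positions recur in at least 2 libraries.

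The other UNC5 receptors gave no difference that passed the test. Unc5a, a receptor that can trigger cell death when netrin is absent (chromosome 13, 54945151 to 55006018, plus strand), has a locus of 80.9 kb, of which WT peaks covered 29.5 and 28.7 kb and cKO peaks 33.7 and 36.8 kb. The cKO values were above the WT values, but the centred difference was −0.11 ± 0.10 (SE; limma adjusted p = 0.697). Its sign turned without centring (0.27), and it was 0.021 with equal numbers of peaks and 0.06 with equal covered length. The interval over the start of its gene span (54941387 to 54946256) had 1.66 and 2.63 kb (WT) against 4.86 and 4.64 kb (cKO), chosen after its values were seen. Its promoter window was fully covered in 3 libraries and lay 558 bp from a peak in WT replicate 1. The only region specific to a genotype in the locus was cKO-only and lay over the neighbouring Hk3 (320 bp, 55012043 to 55012362).

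Unc5b, which also acts in blood vessels (chromosome 10, 60762594 to 60831581, minus strand), had 17.2 and 15.9 kb under peaks (WT) against 16.0 and 24.9 kb (cKO). The groups overlapped and cKO replicate 2 stood apart. Its centred difference of −0.12 ± 0.16 (SE; limma adjusted p = 0.805) turned to 0.11 without cKO replicate 1 and to 0.27 without centring, and was −0.34 without cKO replicate 2. The stretch common to all libraries was longest over the start of the gene (60826315 to 60831962, 5648 bp), and the promoter window was fully covered in all 4. An interval inside the gene (60793176 to 60796193) had 3003 and 2362 bp of peaks in WT and 1012 and 1134 bp in cKO, again chosen after its values were seen. Of the 2 cKO-only regions the longer had 642 bp and lay before the gene (60834317 to 60834958). The last of 3 equal parts of the gene had no peak in any library.

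Unc5c, a receptor needed for the layout of the cerebellum (chromosome 3, 141465564 to 141834924, plus strand), had 10.5 and 12.5 kb under peaks (WT) against 14.8 and 14.7 kb (cKO). The groups did not overlap before centring. The centred difference was −0.036 ± 0.17 (SE; limma adjusted p = 0.947), and it ranged from −0.69 with equal covered length (limma adjusted p = 0.751) to 0.35 without centring. It was 0.20 with stricter peaks, 0.041 with cyclic loess scaling, and between −0.26 and 0.18 with 1 library left out, the lowest without WT replicate 1 and the highest without WT replicate 2. Its longest common stretch lay over the promoter (141464248 to 141466232, 1985 bp). Of its 8 shared intervals, 6 were covered over more bases in both cKO libraries and 0 over fewer, beside 40.9% and 5.35% genome-wide. Unc5c held 1 cKO-only region, of 290 bp (141816717 to 141817006).

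Dcc, the receptor through which netrin attracts axons (chromosome 18, 71253613 to 72351228), was thinly marked. Its 1117.6 kb locus had 28.9 and 30.4 kb under peaks (WT) against 47.4 and 32.2 kb (cKO), where cKO replicate 1 stood apart. The centred difference was 0.0074 ± 0.21 (SE; limma adjusted p = 0.992), between −0.35 without cKO replicate 1 and 0.39 without centring. Most of the added bases came from an interval from 72104120 to 72108735 and from intervals not shared by all libraries. That interval had 1.45 and 0.895 kb (WT) against 4.48 and 4.54 kb (cKO), and was chosen after its values were seen. The longest stretch common to all libraries was 2848 bp (72032777 to 72035624). Dcc held 2 cKO-only regions, the longer of 943 bp (72225680 to 72226622), and 0 WT-only regions.

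**Figure D5:**
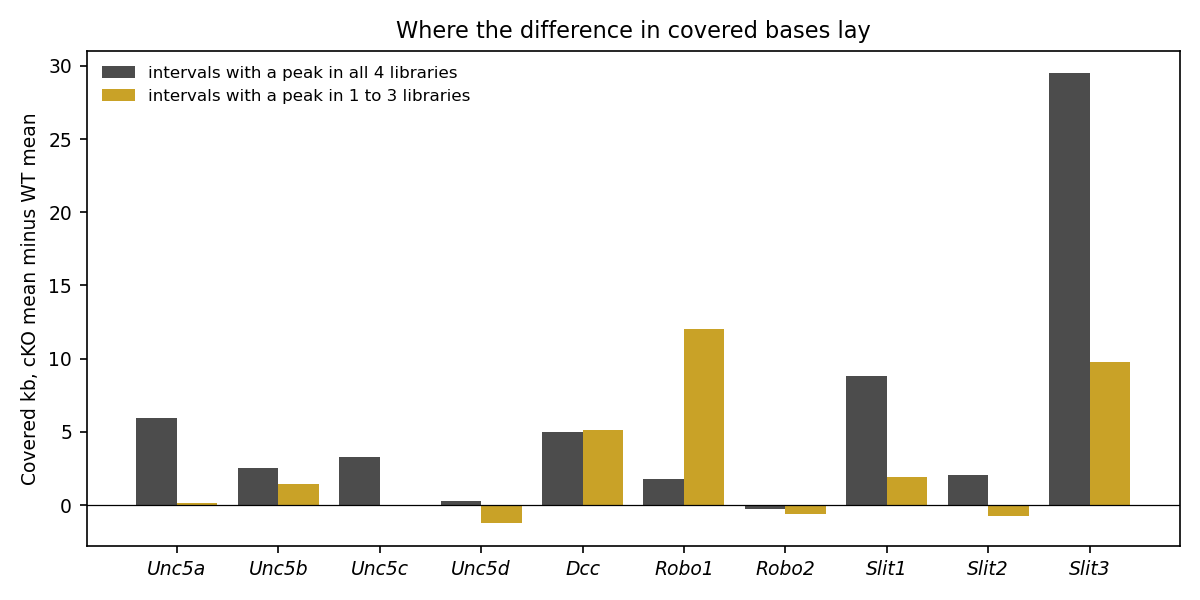
Difference between the cKO mean and the WT mean in bases under peaks, in kb, split by whether a merged interval had a peak in all 4 libraries (dark bars) or in 1 to 3 (gold bars). Slit3 has the tallest dark bar at 29.5 kb, Robo1 has most of its gain in the gold bar, and both bars of Unc5d and Robo2 are close to 0.

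Over the 10 loci, 173 of 299 merged intervals had a peak in all 4 libraries (57.9%), close to 57.1% of all 93831 intervals in the genome. Both cKO libraries and no WT library touched 13 of them, beside 5.65% of all intervals, and both WT libraries and no cKO library touched 7, beside 0.599%. Of the 173 shared intervals, 62 were covered over more bases in both cKO libraries (35.8%, beside 40.9% in the genome) and 13 over fewer (7.51%, beside 5.35%). The 14 cKO-only regions lay in 7 members, compared with 18.6% of all tested loci and 46.6% of those of at least 100 kb. The 7 WT-only regions lay in Unc5d, Robo2 and Slit3, compared with 2.18% of tested loci and 7.72% of the long ones. The balance of cKO-only to WT-only regions turned with the processing, to 7 against 12 with equal numbers of peaks and to 1 against 34 with equal covered length. The members together held 0.311%, 0.320%, 0.311% and 0.290% of all bases under peaks in WT replicates 1 and 2 and cKO replicates 1 and 2.

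The deposited fold enrichment, the authors' own value for each peak over the caller's background, placed the strongest peak of most members high in its list. In Slit2 that peak stood between percentiles 58.5 and 69.6 of its library's list, and in the other 9 members between percentiles 82.3 (Unc5c, WT replicate 2) and 99.4 (Unc5b, cKO replicate 1). A maximum over many peaks tends to rank higher than one over few. Slit2 had 6 or 7 peaks in a library and Slit3 48 to 62. The rank expected from the number of peaks was not computed, so these percentiles do not measure enrichment of the members. In WT replicate 1 the strongest peak of a member ranged from 4.62 in Slit2 to 6.91 at Unc5a, and the median of the whole list was 4.15. That Unc5a peak (54932297 to 54938904) lay before the gene span and began beyond the 10 kb flank. In cKO replicate 2 the strongest peak of a member ranged from 4.35 in Slit2 to 7.15 in Slit3, and the list median was 3.81. The highest value of all 40 gene and library pairs was 7.51, in an Unc5b peak of cKO replicate 1 (60815757 to 60817996). In Slit3 the strongest peak sat at 35574693 to 35576900 in WT replicate 1 and at 35303144 to 35307910 in cKO replicate 2. The first of these positions was also the strongest in WT replicate 2 and the second in cKO replicate 1.

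No gene of a list of 30 other pathway genes passed the test. It held netrins, further receptors, the ROBO effectors Srgap1, Srgap2 and Srgap3, and signalling partners, and 29 were tested (Robo4, with at most 0.990 kb in a library, was too thinly covered). At an unadjusted limma p under 0.05 there was 1 of the 29 on the higher side, beside 5.56% of all loci, and 4 on the lower side, beside 4.44%. The median difference was −0.16, compared with −0.038 over all tested loci, with 9 above and 20 below 0, beside 45.0% and 55.0% of all loci. Both cKO libraries exceeded both WT libraries in covered bases in 20 of the 29, beside 59.8% of all loci, and lay below them in 1. The largest negative differences were those of Ntn4, a netrin of basement membranes (26920 and 26129 bp in WT, 24574 and 24958 bp in cKO; −0.48 ± 0.11, limma adjusted p = 0.407), and of Robo3, a receptor of commissural axons (7.32 and 6.98 kb against 7.59 and 7.07 kb; −0.35 ± 0.18, adjusted p = 0.528). Flrt1 had the same rounded difference as Robo3 (79.1 and 73.2 kb in WT, 76.0 and 80.3 kb in cKO, −0.35 ± 0.077, limma adjusted p = 0.407). Ntn4 was the gene with both cKO libraries below both WT libraries, which 1.22% of all loci showed. The largest positive ones were those of the adaptor gene Nck1 (0.870 and 1.16 kb against 1.97 and 3.08 kb; 0.59 ± 0.35, limma adjusted p = 0.574) and of Dock1 (46.6 and 38.1 kb against 63.4 and 70.8 kb; 0.28 ± 0.081, adjusted p = 0.454), which activates the GTPase Rac. The most covered were Flrt1, which encodes a membrane protein of the FLRT family, with 78.1% ± 3.23 (SD, n = 4 libraries), and Rgma, a ligand of neogenin, with 69.7% ± 8.78. Netrin-1 itself, Ntn1, had 9.02% ± 2.19 of its locus covered, with 18.2 and 13.9 kb (WT) against 15.4 and 23.7 kb (cKO).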

How the data were processed

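Native chromatin was cut with micrococcal nuclease before precipitation, per the labels' protocols. For each ChIP library a broad peak list was deposited by the authors. FastQC, cutadapt, Bowtie2 2.2.8, MACS2 2.1.1 and mm10 are named in the submitters' processing notes; the sources used here do not give calling options, and the 4 input libraries were not analysed here. A deposited line holds a score (the integer part of 10 times −log10 q), a fold enrichment (a ratio over the caller's background), and a −log10 p-value and −log10 q-value as the authors' caller wrote them. A deeper library or a better precipitation gives more and wider peaks, which every measure here inherits.

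Bases under peaks per locus were computed from the deposited coordinates in Python (3.11.15) using the packages numpy (2.4.6) and pandas (2.3.3). The 1 peak on an unplaced contig in each cKO list was dropped. Loci overlap, so neighbours share peaks. Values were taken as log2(bases + 500), loci with a mean under 1000 bases were left out, and libraries were centred on their medians; a log2 difference on this scale understates change at thinly covered loci. The genotype comparison used limma 3.58.1 (R 4.3.3; trended eBayes, no block), with Benjamini-Hochberg adjustment over all loci and a threshold of 0.05. The code was tested on simulated data with 14941 loci. Of 50 loci given a log2 change of 0.5 it found 7, and at a change of 1 it found 39. At changes of 2 and 4 it found all 50, and 10 calls were false. The members' centred differences, from −0.42 to 0.25, were smaller than 0.5 in size. The absence of calls among them therefore does not show that the mark was unchanged. Promoter and microRNA sequences, and strands, came from RefSeq tables (GRCm38.p6); Unc5d, Dcc and Slit1 have no matched window. Genes named were the 10 members, the pathway genes with the 2 largest differences in each direction and the 2 most covered, plus Ntn1, Robo4 and the Srgap genes, which were added afterwards. Regions named were the longest stretch common to all libraries in each member, the longest genotype-specific region, and intervals said in the text to have been chosen after their values were seen. Also named were the strongest peaks of Unc5a, Unc5b and Slit3 in some libraries, the widest merged interval of Slit1 and the interval at the outer start of Robo1. The members and lists were chosen with earlier results of these data known. Alternatives varied the peaks kept, flank, pseudocount, filter, scaling, block and libraries.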

Additional observations from a re-analysis of the deposited data

How the results depend on the processing

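Unc5d and Robo2 stayed negative and Slit3 positive in all 16 alternatives run on the locus comparison; the other members changed sign in at least 2. Without centring, Unc5a (0.27), Unc5b (0.27), Unc5c (0.35), Robo1 (0.33), Slit1 (0.21) and Slit2 (0.20) became positive. With equal covered length Unc5a (0.06) and Slit1 (0.074), with equal numbers of peaks Unc5a (0.021), with stricter peaks Unc5c (0.20), and with cyclic loess scaling Unc5c (0.041) and Robo1 (0.03) did. Dcc, at 0.0074, became negative with stricter peaks (−0.18), equal numbers of peaks (−0.10), 25 kb on either side (−0.016), a pseudocount of 100 bases (−0.021) and no filter (−0.061). Leaving out 1 library at a time gave −0.34 to 0.11 for Unc5b, −0.26 to 0.18 for Unc5c, −0.35 to 0.37 for Dcc, −0.25 to 0.15 for Robo1 and −0.45 to 0.09 for Slit2. With equal covered length Slit2 (−0.76), Robo1 (−0.70) and Unc5c (−0.69) were far more negative than with the lists as deposited. The causes were not tested.

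limma called 203 loci higher and 195 lower with no filter, and between 0 and 119 higher and 0 and 5 lower with 1 library left out, the largest numbers without WT replicate 1; no member was among the calls with a library left out. In fits that leave 1 library in a group, that library is assumed to vary like the others. The replicate block gave 0 calls in either direction. The deviations of same-numbered libraries had a correlation of −0.0962 over 14941 loci, and the labels do not say whether a number marks a shared litter or day, so the numbers were not used as pairs.

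Counts of regions depended on how much was called. The 14 cKO-only regions became 7 with equal numbers of peaks, 1 with equal covered length, 6 at a minimum of 500 bp, and 27 to 39 with 1 library left out. The 7 WT-only regions became 3 with stricter peaks, 12 with equal numbers, 34 with equal covered length, 2 at 500 bp, and 9 to 18 with 1 library left out. The 6 members with both cKO libraries above both WT libraries became 3 with equal numbers of peaks and 1 with equal covered length. The median covered share of 6.29% became 5.85% with stricter peaks and 4.62% with equal covered length. Of the 173 shared intervals, 94 had at least 50% of their width covered in every library. The unknown depth limits all of these counts.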

Other observations

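Several of the widest marked stretches near these genes also lay over annotated noncoding genes. The longest stretch covered in all 4 libraries that reached into the Unc5a locus (chromosome 13, 54932317 to 54938624, 6308 bp) was outside Unc5a, over Gm31313, whose span runs up to the Unc5a gene. This stretch began beyond the 10 kb flank, so only part of its length lay in the locus. It belonged to a merged interval that began farther out still. Over its whole length that interval had 10354 and 10645 bp of peaks in WT replicates 1 and 2 and 10696 and 14050 bp in cKO, where cKO replicate 2 stood apart. The widest interval in Slit1 overlapped Gm34116, and the longest common stretch in Slit3 (chromosome 11, 35304049 to 35307721, 3673 bp) overlapped Gm46277. Peak lists carry no strand, so the mark cannot be assigned to the coding or the noncoding gene.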
